A study of Homo sapiens with 6 samples.

Results

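The genes described here are 10 members of the USF, MYC, MAX and MLX network of transcription factors, measured in TC28a2 chondrocytes 48 hours after transfection with an FAP overexpression vector or a control vector. They are USF1, USF2, USF3, MYC, MAX, MNT, MXD4, MXI1, MLX and MLXIP, 10 of the 28395 gene rows of the deposited table. The group was chosen by the measured change of USF1 in the FAP against control comparison, and the other 9 genes were added for their place in the same family of regulators. What follows on that comparison is therefore a description of these genes. FAP, or fibroblast activation protein, is a serine protease of the cell surface, and TC28a2 is an immortalised human chondrocyte line that carries the SV40 large T antigen. There were 3 FAP vector libraries and 3 control vector libraries, prepared by DRUG-seq, a pooled and low-cost RNA sequencing method. The labels give neither the promoter of the vector nor the share of cells that took it up, and the cultures of both groups went through transfection. It is not stated that the replicates were grown separately, so the spread between them may be technical.

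USF1 and USF2 are helix-loop-helix leucine zipper proteins that pair with each other and bind the E-box CACGTG, mostly close to transcription starts. MYC binds the same element only when paired with MAX. MNT, MXD4 and MXI1 also pair with MAX and act there as repressors that oppose MYC. MLXIP, also called MondoA, pairs with MLX and switches on genes in response to glucose metabolites. MYC is best known as a driver of cell growth, ribosome production and division.

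The E-box that these proteins share was searched in the promoters of the members, to see whether the genes themselves carry the element that their products bind. RefSeq promoter windows (GRCh38.p14, 250 bases before to 50 after the annotated start) were at hand for 9 of the 10 genes. The letters CACGTG, which read the same on both strands, were found in 3 of these 9 windows, 33.3%, against 10.4% of the 10531 windows of tested genes and 7.43% of all 27305 windows. The 3 matches are shown with the E-box in capitals, 5′ to 3′ on the strand of the gene. The MNT match lies at chr17:2401236-2401265 on the minus strand, the MXD4 match at chr4:2262330-2262359 on the minus strand, and the MLX match at chr17:42567038-42567067 on the plus strand.
MNT: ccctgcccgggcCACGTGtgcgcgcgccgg
MXD4: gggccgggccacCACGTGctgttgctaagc
MLX: gcgggcgcgggtCACGTGggcacgccaccc
The first base of the motif stood at position -193 for MNT, -238 for MXD4 and -50 for MLX, counted from the annotated start. These windows belong to a pair of MAX-binding repressors and to the partner of MLXIP. The windows of USF1, USF2, USF3, MAX, MXI1 and MLXIP did not hold these letters.

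Gene totals ran from 6275038 to 13839743 counts per FAP library and from 5736056 to 12446373 per control library. FAP, the gene carried by the vector, was at 223, 225 and 351 CPM in FAP replicates 1, 2 and 3, against 0, 1.20 and 0.396 CPM in control replicates 1, 2 and 3, so every library matched its label. CPM here are each gene's counts relative to library size after TMM scaling, a correction for library composition. FAP replicate 3 stood apart from the other FAP libraries in its counts, with a chi-square per degree of freedom of 16.2 and 15.5 against FAP replicates 1 and 2, compared with 5.74 between those and 5.21 to 6.78 between controls. Of 8 defining cartilage chondrocyte markers, SOX9 was the 1 with enough counts to be tested (37.4 ± 5.66 CPM with the FAP vector and 28.8 ± 5.31 CPM with the control vector, SD, n = 3 each). COL2A1, ACAN, COL9A1, COL11A1, MATN3, COMP and PRG4 had at most 15 counts in any library. The cartilage matrix markers of the labelled cell type were thus nearly absent.

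Of the 10 members, USF1 alone was higher in FAP vector cells by the test across all genes, and the other 9 were not called. All 10 had enough counts to be tested. A gene was called when its adjusted p over all 13373 tested genes was below 0.05 (edgeR's quasi-likelihood test, Benjamini-Hochberg adjustment). That threshold was passed by 0.224% of tested genes, 0.0972% higher and 0.127% lower in FAP libraries. The 1 called member is the gene that led to the choice of the group, so nothing can be read from 1 in 10. With library totals in place of TMM scaling the calls over all genes were 13 higher and 6 lower, against 13 higher and 17 lower with TMM.

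USF1 (Entrez 7391; GRCh38 chromosome 1, 161039251 to 161045977, minus strand) encodes upstream stimulatory factor 1. It had 96, 171 and 73 counts in FAP replicates 1, 2 and 3, against 14, 29 and 38 counts in control replicates 1, 2 and 3. As levels these were 15.3, 12.1 and 5.41 CPM in the FAP libraries and 2.56, 3.17 and 3.01 CPM in the controls. Each FAP library lay above each control, and the controls lay close together. These are averages over all cells of a culture, so more RNA per cell and more cells with the RNA cannot be told apart.

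The FAP libraries differed among themselves in USF1. Exact 95% binomial intervals, which cover counting error only, were 12.4 to 18.7, 10.3 to 14.02 and 4.24 to 6.80 CPM in FAP replicates 1, 2 and 3. In control replicates 1, 2 and 3 they were 1.40 to 4.29, 2.12 to 4.55 and 2.13 to 4.13 CPM. Each control interval held the levels of all 3 controls, so the controls lay closer together than their counting error. Their closeness is therefore not read as a trait of USF1. The interval of FAP replicate 3 did not reach those of the other FAP libraries, and its lower end lay below the upper ends of control replicates 1 and 2. USF1 in FAP replicate 1 was 2.83 times its level in FAP replicate 3. Against the control mean the 3 FAP libraries were 5.26, 4.15 and 1.86 times as high. FAP replicate 3 is the library that stands apart in its counts, and it also had the most FAP RNA, so among the FAP libraries USF1 was lowest where FAP was highest. The part of this library in the result was not tested beyond leaving it out.

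**Figure D1:**
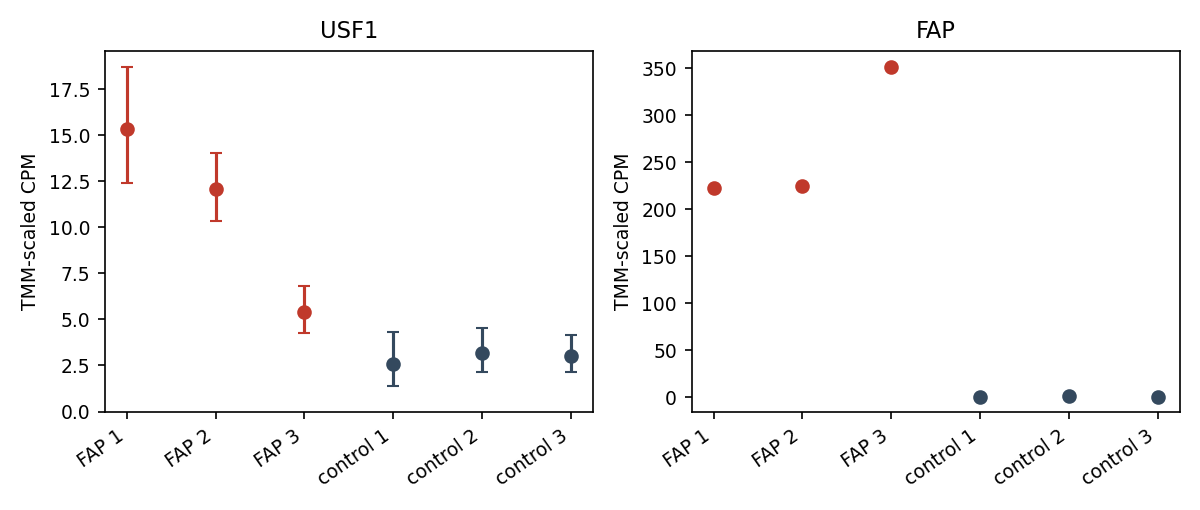
Level of USF1 (left, with exact 95% binomial intervals for counting error) and of FAP (right) in each library, in TMM-scaled CPM; red points are FAP vector libraries and dark points control vector libraries. USF1 lay between 5.41 and 15.3 CPM in the FAP libraries and between 2.56 and 3.17 CPM in the controls, and FAP replicate 3 had the least USF1 and the most FAP of its group.

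The values that chose USF1 were a log2 fold change of 1.85 (SE 0.32, 95% interval 1.18 to 2.52), and an adjusted p of 0.01665. USF1 averaged 10.9 ± 5.05 CPM in FAP libraries and 2.91 ± 0.317 CPM in control libraries. The coefficient of variation was 46.2% between FAP libraries and 10.9% between controls. Among the 4397 tested genes with a control mean of 1 to 10 CPM, the median was 23.9% between FAP libraries and 23.4% between controls. Of these genes, 14.6% varied at least as much as USF1 between FAP libraries and 84.3% at least as much between controls. The match is on control level only, and the FAP mean of USF1 lies above that range. The call was lost when FAP replicate 2 was left out (adjusted p = 0.09865) and without control replicate 1, 2 or 3 (adjusted p = 0.1461, 0.1797 and 0.2318). Leaving out FAP replicate 1 kept it (log2 fold change 1.57, adjusted p = 0.04241), as did leaving out FAP replicate 3 (2.19, adjusted p = 2.541e-07). limma-voom did not call USF1 (1.62, adjusted p = 0.1306), and DESeq2 gave it no adjusted p.

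No other gene of the RefSeq annotation overlaps USF1. The tested genes nearest to it on chromosome 1, taken as 3 on each side by annotated start, were SLAMF7, VANGL2 and F11R on one side and ARHGAP30, NECTIN4 and PFDN2 on the other. Not all are close: VANGL2 lies 610581 and SLAMF7 284430 bases away, against 54584 for PFDN2. None of these 6 was called by edgeR, DESeq2 or limma-voom, and 2 had an unadjusted p under 0.05 in edgeR, against 9.91% of all tested genes. The closest was ARHGAP30, a GTPase activating protein gene 969 bases away, at 1.12, 0.494 and 1.04 CPM in FAP replicates 1, 2 and 3 and 0.913, 1.09 and 0.633 CPM in control replicates 1, 2 and 3. Its log2 fold change was -0.02 with an SE of 0.58 and a 95% interval of -1.22 to 1.18. The USF1 estimate of 1.85 lay outside that interval. The intervals of the 2 genes met at 1.18, and ARHGAP30 had only 5 to 14 counts per library. F11R, the junctional adhesion molecule A gene, had 19.3, 14.1 and 17.2 CPM in FAP replicates 1, 2 and 3 and 10.2, 12.1 and 14.3 CPM in control replicates 1, 2 and 3 (log2 fold change 0.42, SE 0.18, adjusted p = 0.434). Its groups overlapped. SLAMF7, an immune cell receptor gene, had lower levels in every FAP library than in any control, 9.96 ± 2.41 against 14.3 ± 3.33 CPM (-0.49, SE 0.21, adjusted p = 0.434).

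USF2, the partner of USF1, was the more abundant of the pair. It had 108, 100 and 85.3 CPM in FAP replicates 1, 2 and 3, against 94.1, 99.4 and 93.4 CPM in control replicates 1, 2 and 3. The FAP libraries lay on both sides of the controls. Its log2 fold change of 0.03 did not pass the test (SE 0.11, adjusted p = 0.9564), and the 95% interval of -0.19 to 0.25 corresponds to 0.876-fold to 1.19-fold. The level of USF1 relative to USF2, both per kb of transcript, was 0.215, 0.183 and 0.0962 in FAP replicates 1, 2 and 3 and 0.0412, 0.0484 and 0.0489 in control replicates 1, 2 and 3. USF1 RNA was thus below USF2 RNA in all 6 libraries by this measure. USF3, a very large and less studied relative, was at 15.3, 16.5 and 17.7 CPM in FAP replicates 1, 2 and 3 and at 13.9, 14.3 and 16.8 CPM in control replicates 1, 2 and 3. Its groups overlapped, with a log2 fold change of 0.14 (SE 0.16, adjusted p = 0.8178).

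MYC (Entrez 4609; chromosome 8, 127735434 to 127742951) did not differ between the groups beyond the spread of the libraries. It had 525, 1077 and 1097 counts in FAP replicates 1, 2 and 3, against 407, 759 and 1075 counts in control replicates 1, 2 and 3. These are levels of 83.8, 76.0 and 81.3 CPM in FAP libraries and 74.3, 82.9 and 85.1 CPM in controls. The lowest and the highest of the 6 values were both controls. Its log2 fold change of -0.01 did not pass the test (SE 0.10, adjusted p = 0.9793), and the 95% interval of the fold was 0.856 to 1.15. MAX, its obligate partner, was at 52.5, 53.2 and 54.2 CPM in FAP replicates 1, 2 and 3 and at 58.1, 49.5 and 46.4 CPM in control replicates 1, 2 and 3. All FAP values fell inside the control range (log2 fold change 0.06, SE 0.11, adjusted p = 0.8861).

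The MAX-binding repressors had small positive values, and none was called. MXD4 had the widest spread of the 3, at 35.9, 31.2 and 24.2 CPM in FAP replicates 1, 2 and 3 and at 25.2, 27.4 and 26.1 CPM in control replicates 1, 2 and 3. FAP replicates 1 and 2 were above all controls and FAP replicate 3 below them (log2 fold change 0.20, SE 0.14, adjusted p = 0.6842). MNT was at 13.9, 16.0 and 17.2 CPM in FAP replicates 1, 2 and 3 and at 13.0, 15.5 and 14.2 CPM in control replicates 1, 2 and 3 (0.15, SE 0.16, adjusted p = 0.8068). MXI1 was at 14.8, 12.9 and 13.9 CPM in FAP replicates 1, 2 and 3 and at 13.0, 9.94 and 13.9 CPM in control replicates 1, 2 and 3 (0.17, SE 0.18, adjusted p = 0.7903). In both genes the groups overlapped.

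MLX and MLXIP, the glucose-sensing pair, had negative values that did not pass the test. MLX was at 15.6, 11.9 and 13.4 CPM in FAP replicates 1, 2 and 3 and at 16.4, 16.2 and 14.9 CPM in control replicates 1, 2 and 3. FAP replicate 1 lay inside the control range and the other FAP libraries below it (log2 fold change -0.22, SE 0.17, adjusted p = 0.6843). MLX shares 894 bases with PSMC3IP, a recombination factor gene on the opposite strand (11.6 ± 3.99 CPM in FAP libraries and 13.4 ± 4.42 CPM in controls). The strand setting of the counting is not given in the sources used here, so reads of this stretch cannot be assigned. MLXIP was at 77.7, 84.5 and 76.1 CPM in FAP replicates 1, 2 and 3 and at 83.1, 93.1 and 82.5 CPM in control replicates 1, 2 and 3. FAP replicate 2 reached the control range (log2 fold change -0.12, SE 0.10, adjusted p = 0.7415).

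**Figure D2:**
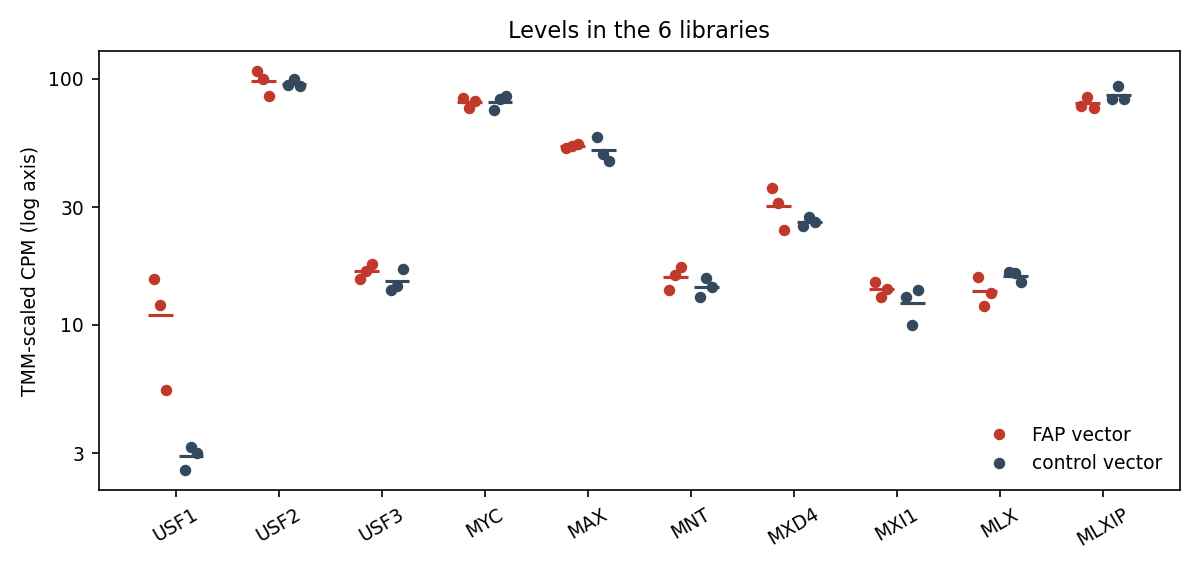
TMM-scaled CPM of the 10 genes on a log axis, with 1 point per library and a bar at the group mean, FAP vector in red and control vector in dark. The groups overlapped in 9 genes, and USF1 was the 1 gene with all FAP libraries above all controls.

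Taking the 9 members other than USF1, none had an unadjusted p under 0.05 in edgeR and 0 were called by DESeq2 or limma-voom. Their log2 fold changes ran from -0.22 to 0.20 and the adjusted p from 0.6842 to 0.9793. The widest reach of their 95% intervals was -0.57 to 0.54, or 0.675-fold to 1.46-fold. A change as large as that of USF1 thus lay outside the interval of each of them. Over the 10 members the median log2 fold change was 0.10, against 0.00 over all tested genes, with 7 positive and 3 negative values. All FAP libraries lay above all controls in 1 of the 10 and below in 0 of the 10, against 7.96% and 7.99% of all tested genes. That 1 gene was USF1, and the groups overlapped in the other 9. The figures over the 10 members include USF1, whose values chose the group, so nothing is read from them.

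**Figure D3:**
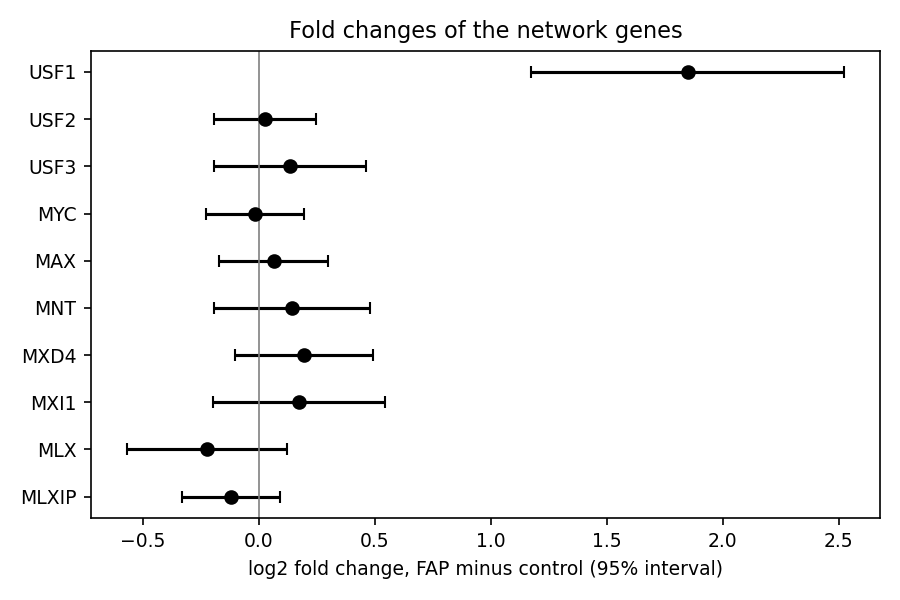
Log2 fold change of FAP vector minus control vector for the 10 genes, with 95% intervals from the fit across all genes. USF1 was at 1.85 (1.18 to 2.52), and the intervals of the other 9 genes, which together span -0.57 to 0.54, all include 0.

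Levels were also compared between the genes after division by the length of the longest annotated transcript, as CPM per kb. DRUG-seq reads may cluster at transcript ends, in which case this division favours short transcripts. In control libraries USF2 (34.9 ± 1.20 CPM per kb) and MYC (34.1 ± 2.40) came first and did not differ beyond their spread. MAX followed at 16.3 ± 1.92 and MLXIP at 10.2 ± 0.706 CPM per kb. MXD4 and MLX, at 6.21 ± 0.263 and 6.12 ± 0.322, overlapped, as did MXI1 and MNT at 3.53 ± 0.591 and 2.85 ± 0.255 CPM per kb. USF1 was ninth of 10 at 1.61 ± 0.175 and USF3 last at 1.09 ± 0.114 (SD, n = 3 each). In FAP libraries USF1 was sixth, at 6.05 ± 2.80 CPM per kb, between MXD4 at 7.20 ± 1.40 and MLX at 5.28 ± 0.722, and it overlapped both. This place depends on the division by length. In CPM without it, USF1 had the lowest mean of the 10 in both groups. The next lowest were MLX in FAP libraries (13.7 against 10.9 CPM) and MXI1 in controls (12.3 against 2.91 CPM).

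**Figure D4:**
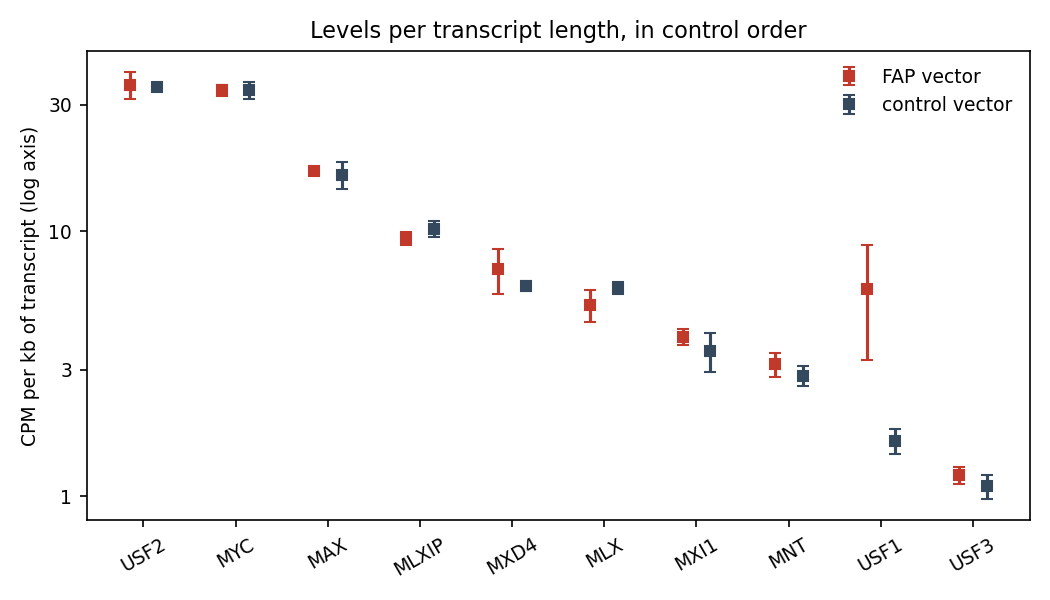
Mean level per kb of transcript with SD (n = 3 libraries per group) on a log axis, FAP vector in red and control vector in dark, ordered by the control mean. Control means ran from 34.9 CPM per kb for USF2 to 1.09 for USF3, and USF1 was at 6.05 in FAP libraries and 1.61 in controls.

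The balance between MYC and its opponents among the members was described by the ratio of their levels per kb within each library. MXD1, MXD3 and MGA are not members and were left out of it. The size of these ratios shares the limit of the division by length. MYC over MNT, MXD4 and MXI1 summed was 2.28, 2.25 and 2.61 in FAP replicates 1, 2 and 3, against 2.56, 2.81 and 2.77 in control replicates 1, 2 and 3. FAP replicate 3 exceeded control replicate 1, so the groups overlapped. MYC over MAX was 2.13, 1.90 and 2.00 in FAP libraries, against 1.71, 2.23 and 2.45 in controls, and all FAP values lay inside the control range. MLXIP over MLX was 1.52, 2.17 and 1.74 in FAP libraries and 1.55, 1.77 and 1.70 in controls, again overlapping.

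The genes whose pattern over the 6 libraries was most like that of USF1 were PPA2, EMP3, SLC71A1, SMOX and C18orf54. They were ranked by Pearson's r of log2 CPM among 8666 genes averaging 10 CPM or more, and r ran from 0.976 to 0.988 over 6 libraries. The r is a description, since all genes share the libraries and their depth and the ranking takes the top of many. PPA2, a mitochondrial pyrophosphatase gene, had 39.3, 36.7 and 32.9 CPM in FAP replicates 1, 2 and 3 and 29.04, 31.3 and 29.7 CPM in control replicates 1, 2 and 3. It shared the order of the FAP libraries with USF1 but spanned a smaller range, with a log2 fold change of 0.27 (SE 0.12, adjusted p = 0.4703). SMOX, spermine oxidase, had 32.2, 28.6 and 22.3 CPM in FAP libraries and 19.5, 21.7 and 19.6 CPM in controls (0.44, SE 0.15, adjusted p = 0.3215). By edgeR and limma-voom none of the 5 was called, and DESeq2 called EMP3. All 5 had an unadjusted p under 0.05 in edgeR, against 9.91% of all tested genes, but likeness to USF1 builds in a group difference, so nothing is read from this count. For MYC the closest genes were UFM1, LIAS, SIRT2, BAG3 and PEX13, with r from 0.960 to 0.975 and log2 fold changes from -0.12 to 0.01.

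Genes around the network were followed in 6 lists that hold 88 genes, 80 of them tested, and edgeR called none of the 80 in either direction. Their unadjusted p was under 0.05 in 13, 8 higher and 5 lower in FAP libraries, against 9.91% of all tested genes. limma-voom called 0 of them and DESeq2 called 3, NOP16 and PPAN among them, all lower in FAP libraries. All FAP libraries lay above all controls in 7 of the 80 and below in 10, against 7.96% and 7.99% of all tested genes. Of the network genes outside the 10, MYCN was listed at 0 in all libraries and MLXIPL, or ChREBP, had at most 4 counts in any library. MYCL, MXD1, MXD3 and MGA were tested, with a median log2 fold change of -0.19. MXD1, another MAX-binding repressor, was at 3.19, 1.62 and 2.96 CPM in FAP replicates 1, 2 and 3 and at 4.38, 3.50 and 3.56 CPM in control replicates 1, 2 and 3 (-0.58, SE 0.35, adjusted p = 0.6158). MXD3 had 24.7 ± 2.34 CPM in FAP libraries and 20.6 ± 3.91 CPM in controls (0.28, SE 0.15, adjusted p = 0.5652).

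Other E-box factors gave 11 tested genes with a median log2 fold change of 0.05. TFAP4, a MYC-induced factor, was at 16.3, 16.2 and 16.8 CPM in FAP replicates 1, 2 and 3 and at 12.2, 14.8 and 11.2 CPM in control replicates 1, 2 and 3. All FAP values were above all controls (log2 fold change 0.37, SE 0.17, adjusted p = 0.46). SREBF1, the regulator of fatty acid synthesis genes, was at 49.9 ± 5.68 CPM in FAP libraries and 40.0 ± 5.20 CPM in controls (0.30, SE 0.12, adjusted p = 0.4205). Among 19 tested cofactors and turnover factors of MYC the median was 0.00. USP28, a deubiquitinase that stabilises MYC, was at 21.4, 16.0 and 20.2 CPM in FAP replicates 1, 2 and 3 and at 15.9, 11.6 and 12.9 CPM in control replicates 1, 2 and 3 (0.52, SE 0.17, adjusted p = 0.2952). CIP2A, an inhibitor of the phosphatase that destabilises MYC, was at 136 ± 10.1 CPM in FAP libraries and 114.5 ± 4.69 CPM in controls (0.24, SE 0.10, adjusted p = 0.4141).

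Known target genes of the 3 branches were not called by edgeR. Of 32 MYC-bound growth genes 30 were tested, with 12 positive and 18 negative values and a median log2 fold change of -0.11, against 0.00 over all tested genes. EIF4A1, a translation factor gene that growing cells use, was listed at 0 in all libraries, and KAT5 and TYMS, on the cofactor and target lists, had at most 6 and 16 counts in any library. PPAN, a ribosome assembly factor, was at 42.9, 36.8 and 25.9 CPM in FAP replicates 1, 2 and 3 and at 61.2, 49.2 and 52.4 CPM in control replicates 1, 2 and 3 (-0.63, SE 0.15, adjusted p = 0.1038). NOP16, a nucleolar protein gene, was at 296, 291 and 290.2 CPM in FAP replicates 1, 2 and 3 and at 423, 382 and 333 CPM in control replicates 1, 2 and 3 (-0.37, SE 0.10, adjusted p = 0.1912). In both genes every FAP library lay below every control. Of the 6 tested MLX-dependent genes the median was -0.04. TXNIP, the standard glucose-responsive target of MondoA, was at 25.4, 35.9 and 40.6 CPM in FAP replicates 1, 2 and 3 and at 40.9, 41.2 and 43.1 CPM in control replicates 1, 2 and 3 (-0.28, SE 0.14, adjusted p = 0.5269).

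Among USF target genes edgeR called none and DESeq2 called 1, lower in FAP libraries. Of 14 genes known for USF-bound E-boxes 12 were tested, with 4 positive and 8 negative values and a median log2 fold change of -0.12. All FAP libraries lay above all controls in 0 of the 12 and below in 3, against 7.96% and 7.99% of all tested genes. FASN, a lipogenic enzyme gene and the best known USF target, was at 159 ± 10.6 CPM in FAP libraries and 140 ± 15.3 CPM in controls (0.18, SE 0.10, adjusted p = 0.5839). FASN is named for its place on the list of MLX-dependent genes, and it is 1 of the 4 positive values here.

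Genes with CACGTG in the promoter window were also taken as a whole. Of 1096 such tested genes 1 was called higher and 1 lower, and the median log2 fold change was -0.01. Of the 9435 tested genes whose window lacks it, 7 were called higher and 10 lower, and the median was 0.00. The shares called were 0.182% and 0.18%. A difference between these sets was not tested, and a motif in this window is no evidence of binding. Of the genes named outside the 10, MXD3, SREBF1, CIP2A, NOP16 and PEX13 overlap another annotated gene with at least 100 counts over the 6 libraries, so their counts are uncertain.

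**Figure D5:**
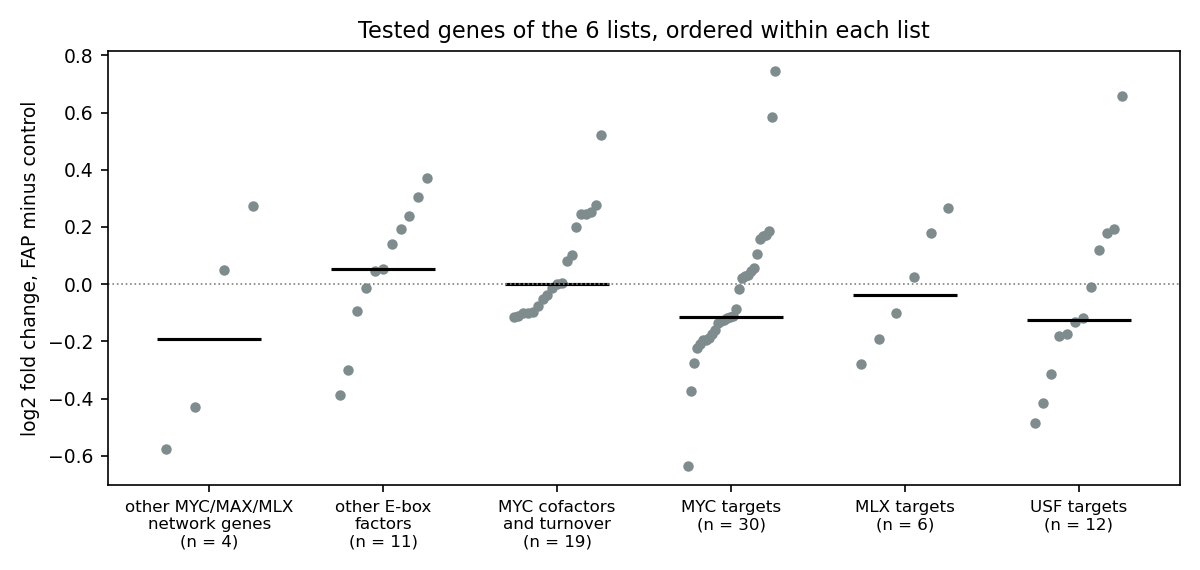
Log2 fold change of FAP vector minus control vector for each tested gene of the 6 lists (points, in rising order within a list) with the list's median (bar). The medians lie between -0.19 and 0.05, and no point is a gene called by edgeR.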

How the data were processed

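The authors deposited a table of raw read counts per Entrez gene ID for the 6 libraries. HISAT2, featureCounts, Subread and GRCh38 are named per the submitters' processing notes. The sources used here give no versions or strand setting, nor how reads that overlap several genes, align to several places or share a molecular identifier were handled. If strand was ignored, overlapping genes can exchange reads, and if identifiers were not used, amplification copies inflate the depth.

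Symbols and positions came from NCBI's RefSeq gene table (GRCh38.p14), which matched 27745 of 28395 IDs. Transcript lengths came from GENCODE release 29. Counts were fitted with edgeR 4.0.16 in R 4.3.3: TMM scaling, edgeR's filterByExpr with a minimum count of 10 and a minimum total of 15, the two-sided quasi-likelihood test of FAP minus control with no covariate, and Benjamini-Hochberg adjustment over 13373 genes. SE is the log2 fold change divided by the square root of F. Likeness used log2(CPM + 0.5). The test was checked on simulated data that gave every gene the same spread and set no library apart. That check does not cover a gene as variable between FAP libraries as USF1. Alternatives were DESeq2 1.42.0, limma-voom (limma 3.58.1), other scalings and filters, FAP left out, a replicate block, and each library left out. Intervals cover counting error only where called binomial. The counts of replicates differed beyond sampling noise, so none was a copy of another. This does not show that the replicates were grown separately. Figures used matplotlib 3.10.9.

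Named genes were the 10 members, the 2 genes with the smallest p in each list, the 5 genes most like USF1 and most like MYC, and the 3 tested neighbours on each side of USF1. Results of some genes that this rule takes in are not reported here by name, and counts include them. The members and lists were chosen with earlier results of these data known.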

Additional observations from a re-analysis of the deposited data

How the results depend on the processing

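USF1 had a positive log2 fold change in all 14 alternatives that gave it a value, from 1.57 to 2.19, and the 9 other members passed the threshold in none of 15 alternatives (smallest adjusted p 0.2534, log2 fold changes between -0.31 and 0.34). All 149 alternative values of the members lay within 1 SD between replicates of the value reported. Leaving out 1 library can hardly move a value that far, so this count says little about robustness. The sign of MYC, which is close to 0, changed in 4 alternatives, and those of MAX and USF2 in 1 each. The count of members called was 0 with limma-voom and between 0 and 1 when 1 library was left out. It had no value with DESeq2, which gave USF1 no adjusted p, or with a minimum of 10 CPM in 3 libraries, which removed USF1. Over all genes 30 were called, against 19 with library totals, 97 with DESeq2, 152 with no filter on low counts, and 3 to 248 when 1 library was left out. The cause was not tested. Same-numbered FAP and control libraries did not deviate together (r of -0.007, 0.029 and -0.001 over genes for replicates 1, 2 and 3), and not every library correlated best with its own number. With the replicate number as a block, 44 genes and 1 member were called, and the log2 fold change of USF1 was 1.72 (adjusted p = 0.007946). At 14 to 38 counts in controls, depth limits the precision of USF1.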
